A study of Homo sapiens with 16 samples.

Results

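The dual-specificity MAP kinase phosphatases examined here are DUSP1, DUSP2, DUSP4, DUSP5, DUSP6, DUSP7, DUSP8, DUSP10, DUSP14 and DUSP16. They were chosen by gene symbol, with earlier results of these data known. All 10 were found among the 23228 genes of the count tables and among the 13948 genes with enough reads to be tested. The RNA came from MDA-MB-231, an oestrogen receptor-negative line derived from a human breast tumour, kept in DMEM with serum. The cells received methyl methanesulfonate (MMS, an agent that methylates DNA), sorafenib at 1 µM (an inhibitor of RAF and several receptor tyrosine kinases), sorafenib for 12 h and then MMS (called the combination here), or the solvent DMSO. Each was sampled at 8 h and 24 h, and each of these 8 groups held 2 libraries from separate experiments, 16 libraries in all. The submitters' texts give MMS as 40 µg/mL for the series but as 40 µM for single samples. Time in the combination was counted from the addition of MMS. The sample labels do not say whether sorafenib stayed on with MMS. If it did, sorafenib exposure was 12 h longer there than in the sorafenib groups. Levels are in CPM (a gene's count scaled to a fixed total of reads counted in genes), with the replicate 1 library before the replicate 2 library. Changes are log2 changes ± SE from edgeR, n = 2 libraries per group, and a gene is said to have risen or fallen where its Benjamini-Hochberg adjusted p over all genes tested was under 0.05.

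MAP kinases are switched on by phosphorylation of a threonine and a tyrosine in their activation loop, and these phosphatases remove both phosphates. ERK, the kinase at the end of the RAS and RAF pathway, induces several of them, which closes a negative feedback loop; the kinases JNK and p38, which respond to stress, induce others. DUSP5, DUSP6 and DUSP7 act mainly on ERK, DUSP5 in the nucleus and the other two in the cytoplasm. DUSP8, DUSP10 and DUSP16 act mainly on JNK and p38. DUSP1, DUSP2 and DUSP4 are inducible nuclear phosphatases that act on all of these kinases. DUSP14 is a small phosphatase that lacks the kinase-binding domain of the others.

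The libraries held between 16774156 and 26448212 reads counted in genes, with a median of 20348720. The marker genes of a mesenchymal basal breast line, VIM, CD44, AXL, CAV1, MSN and FN1, summed to between 4685 and 7249 CPM in every library, and the oestrogen receptor gene ESR1 reached at most 0.224 CPM. The 4 leukocyte markers summed to 91.6 to 178 CPM, of which CD68 made up 90.1 to 164, while CD3E had at most 2 reads in a library and PTPRC at most 32. The 4 endothelial markers summed to 5.27 to 8.96 CPM in MMS libraries, 12.9 to 13.95 CPM in sorafenib libraries and 6.44 to 10.4 CPM in combination libraries, against 15.3 to 17.7 CPM in DMSO libraries, with KDR the highest at up to 298 reads and VWF at most 4. The mesenchymal sum was 4685 to 5954 CPM in libraries with MMS, alone or in the combination, and 6169 to 7249 CPM in sorafenib and DMSO libraries, and the part of either sum in the results below was not tested.

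Promoters of 8 members are in the RefSeq promoter table used (GRCh38.p14, a window of 300 bases around each annotated start), and those of DUSP1, DUSP8 and DUSP6 are shown. DUSP1 and DUSP6 stand for a member that was higher and a member that was lower with MMS, and DUSP8 was added after its motif matches were seen. The cyclic AMP response element TGACGTCA, bound by CREB and ATF family factors, and its shorter form TGACGTC are in capitals where a search of both strands found them.

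DUSP1, chr5:172771146-172771445, minus strand: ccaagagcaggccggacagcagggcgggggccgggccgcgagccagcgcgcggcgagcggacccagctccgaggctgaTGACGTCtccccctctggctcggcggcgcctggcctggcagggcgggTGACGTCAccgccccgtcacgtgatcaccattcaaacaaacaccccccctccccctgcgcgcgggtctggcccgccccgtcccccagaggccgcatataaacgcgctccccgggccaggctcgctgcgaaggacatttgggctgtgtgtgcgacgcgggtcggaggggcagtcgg

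DUSP8, chr11:1572222-1572521, minus strand: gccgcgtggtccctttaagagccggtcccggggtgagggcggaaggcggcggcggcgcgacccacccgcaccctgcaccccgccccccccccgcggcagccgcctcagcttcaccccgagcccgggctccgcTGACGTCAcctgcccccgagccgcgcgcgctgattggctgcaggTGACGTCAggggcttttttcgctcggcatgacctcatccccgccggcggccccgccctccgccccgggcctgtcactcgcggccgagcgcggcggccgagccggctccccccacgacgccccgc

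DUSP6, chr12:89352452-89352751, minus strand: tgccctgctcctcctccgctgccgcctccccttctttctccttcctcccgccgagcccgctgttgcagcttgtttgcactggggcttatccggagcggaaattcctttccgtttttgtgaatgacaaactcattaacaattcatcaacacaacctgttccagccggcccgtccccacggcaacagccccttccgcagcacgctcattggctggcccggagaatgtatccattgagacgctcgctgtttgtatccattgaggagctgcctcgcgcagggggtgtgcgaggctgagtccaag

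The letters TGACGTCA occurred in 649 of 35116 promoters in the table (1.85%), and in 2 of the 8 promoters of members. In DUSP1 the match began at position -125, counted from the annotated start, with a further TGACGTC at -172. In DUSP8 matches began at -118 and -74. These positions depend on the annotated start. In the GENCODE v29 annotation the DUSP8 gene begins at chr11:1571920, downstream of the window shown. DUSP6 begins there at chr12:89353271, upstream of its window, and DUSP1 at chr5:172771195, inside its window. TGACGTC, which every TGACGTCA contains, occurred in 3.45% of the promoters. TGACGCAA (0.513% of the promoters), the AP-1 letters TGANTCA (7.71%), the ETS letters CCGGAA (17.2%) and the CArG box (1.29%) were not found on either strand of the 8 member promoters. CCGGAA is a strict form of an ETS site. Its shorter part GGAA, which the DUSP6 window shown holds, was not searched for. A match is a description of letters in this window and was not tested as a binding site.

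The members differed widely in level. The annotation behind the counts is not given, so exon lengths from GENCODE v29 may differ from those counted, which the SD does not cover. Per kilobase of exon (GENCODE v29) in DMSO cells at 24 h, DUSP4 was highest at 124 ± 3.35 CPM per kb (SD, n = 2), followed by DUSP6 at 93.4 ± 0.866. DUSP1 at 50.8 ± 3.29 and DUSP5 at 50.6 ± 16.7 CPM per kb did not differ beyond their spread, nor did DUSP14 at 29.4 ± 0.256 and DUSP7 at 24.0 ± 6.32. DUSP10 followed at 15.8 ± 0.534 and DUSP16 at 5.64 ± 0.216 CPM per kb, and DUSP8 at 0.761 ± 0.0887 and DUSP2 at 0.384 ± 0.0280 were the lowest. DUSP8 had 44 to 232 reads per library and DUSP2 8 to 131, the fewest of the members. In MMS cells at 8 h the order changed at the top, with DUSP1 at 151 ± 0.897 CPM per kb above DUSP4 at 56.2 ± 2.39.

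**Figure D1:**
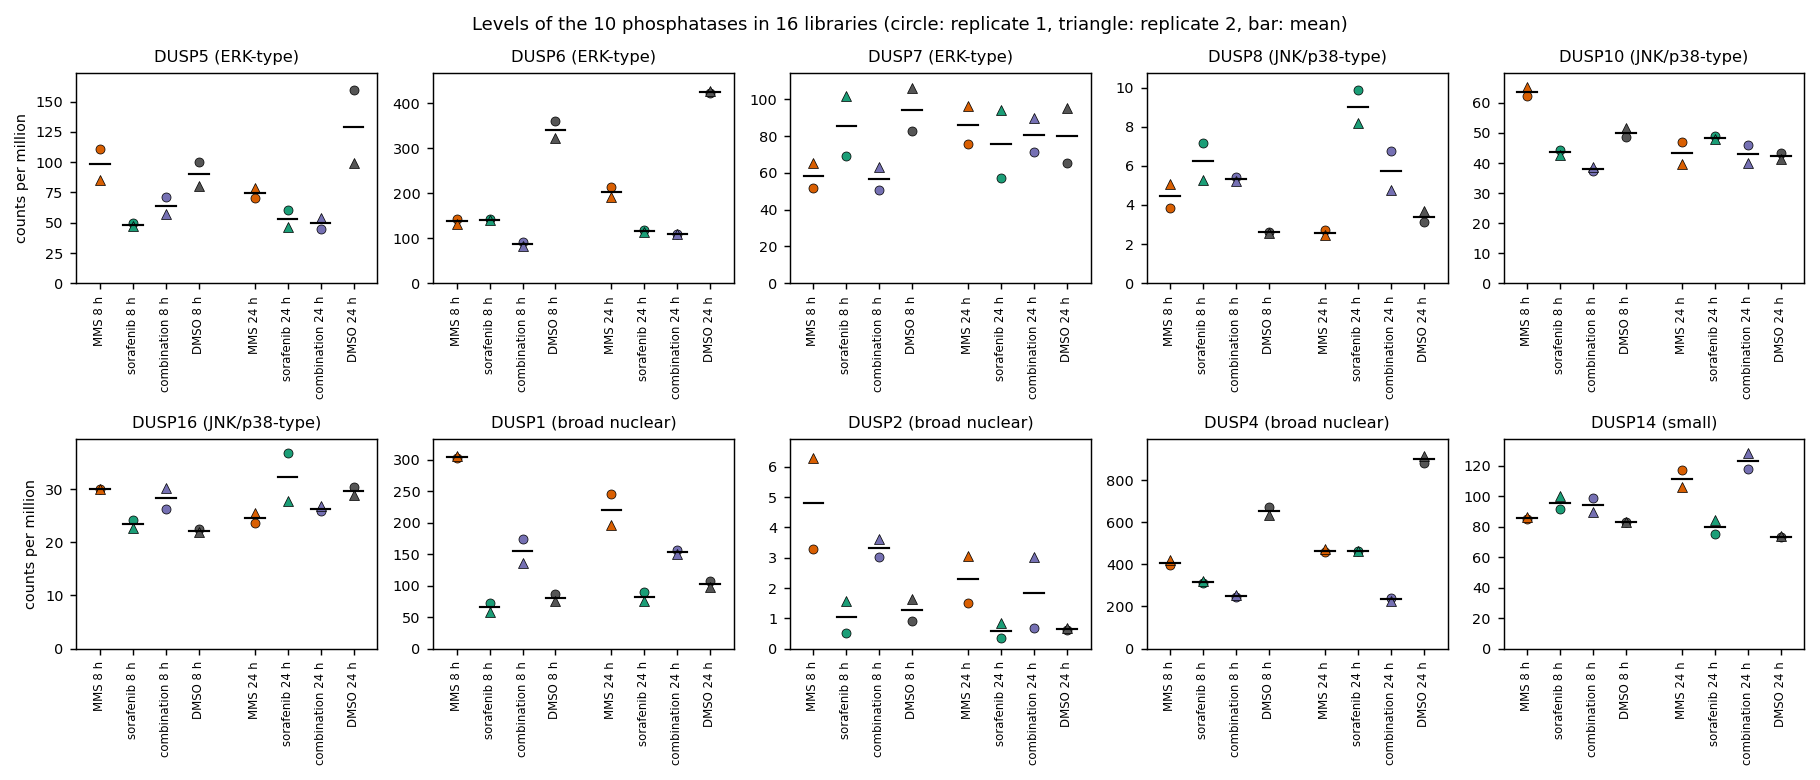
Level of each phosphatase in CPM (vertical axis, each panel with its own scale from 0) in the MMS, sorafenib, combination and DMSO libraries at 8 h and 24 h; circles are replicate 1, triangles replicate 2 and bars group means. DUSP6 and DUSP4 are highest in the DMSO libraries at both times, while DUSP1 is highest in the MMS libraries.

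Counts of members past the threshold are set here beside the share of all tested genes that passed it. With MMS against DMSO at 8 h, 4 of the 10 members rose and 2 fell, against 14.5% of all genes higher and 12.0% lower. With sorafenib against DMSO at 8 h, 1 rose and 2 fell, against 0.115% of genes higher and 0.280% lower. With the combination against DMSO at 8 h, 2 rose and 3 fell, against 12.5% higher and 11.8% lower. At 24 h the members were 2 higher and 3 lower with MMS (background 15.2% and 16.3%), 1 higher and 3 lower with sorafenib (0.244% and 0.574%), and 3 higher and 3 lower with the combination (16.2% and 17.2%). With sorafenib the background was under 1%, whereas MMS and the combination moved a large part of all genes. The members were chosen with earlier results of these data known, so their shares are a description and were not tested against the background. In fits of the compared libraries alone, 1 member passed with sorafenib at 8 h and 1 at 24 h, where 4 and 5 genes passed. In these bulk libraries a change in every cell and a larger change in some cells cannot be told apart.

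With the combination against MMS alone, 4 members fell at 8 h, where 0.401% of genes were lower and 0.222% higher, and 2 fell at 24 h, where 0.108% were lower and 0.0143% higher. With the combination against sorafenib alone, 1 rose and 2 fell at 8 h, against 13.0% and 11.6% of genes, and 2 rose and 3 fell at 24 h, against 18.0% and 18.8%. In the fit with the experiment, taken from how the sample titles begin, as replicate block, 9 members passed with the combination against DMSO at 8 h (20.5% of genes higher and 19.0% lower in that fit), 5 with the combination against sorafenib at 8 h (20.6% higher and 19.1% lower) and 5 with the combination against MMS at 24 h (0.774% higher and 1.25% lower). The counts rest in part on single libraries. With 1 library left out, which leaves 1 library in a group, members lost calls with MMS and with sorafenib against DMSO at both times. The same held for the combination against DMSO and against MMS at both times, and against sorafenib at 24 h. The number of all genes that passed changed in these fits as well, so their counts of members are not set beside those of the main fit.

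DUSP6, the ERK phosphatase whose transcript is a standard readout of ERK output, fell under every treatment at both times. At 8 h it stood at 143 and 132 CPM in MMS cells, 142 and 141 CPM in sorafenib cells and 92.6 and 83.4 CPM in combination cells, against 360.4 and 322 CPM in DMSO cells. Every treated library lay below both DMSO libraries, and both combination libraries lay below every library of MMS or sorafenib alone. The log2 changes against DMSO were -1.28 ± 0.09 with MMS, -1.25 ± 0.09 with sorafenib and -1.97 ± 0.10 with the combination (edgeR adjusted p 3.35e-06, 6.20e-05 and 6.44e-07). The combination was also below MMS by a log2 change of -0.69 ± 0.09 (edgeR adjusted p 0.00775) and below sorafenib at a log2 change of -0.71 ± 0.09 (adjusted p 0.000209). The call against MMS was lost without replicate 1 of MMS (adjusted p 0.0936) and in a fit of the compared libraries alone (0.120).

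At 24 h DUSP6 stood at 215 and 192 CPM in MMS cells, 118 and 114 CPM in sorafenib cells and 109 and 109 CPM in combination cells, against 422 and 428 CPM in DMSO cells. The sorafenib and combination libraries lay close together and below both MMS libraries. Against DMSO the log2 changes were -1.11 ± 0.09 with MMS, -1.88 ± 0.10 with sorafenib and -2.02 ± 0.10 with the combination, and with sorafenib DUSP6 ranked 1 of 13948 genes by p (edgeR adjusted p 2.12e-06). The combination was below MMS at a log2 change of -0.90 ± 0.09 (adjusted p 0.00171), a call lost without replicate 1 or replicate 2 of the combination (adjusted p 0.0505 and 0.0711) and in a fit of the compared libraries alone (0.0760). Against sorafenib alone the combination gave -0.13 ± 0.09, which did not pass (edgeR adjusted p 0.295). An antisense gene, AC024909.2, shares 1789 exon bases with DUSP6 in GENCODE v29, and with no strand setting given in the sources used here their reads cannot be told apart.

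DUSP5, the nuclear ERK phosphatase, which is itself induced by ERK, fell at 24 h under every treatment. Its levels at 24 h were 70.8 and 78.4 CPM in MMS cells, 60.4 and 46.3 CPM in sorafenib cells and 45.0 and 54.0 CPM in combination cells, against 159 and 99.2 CPM in DMSO cells. All treated libraries lay below both DMSO libraries, which differed widely from each other. The log2 changes were -0.85 ± 0.22 with MMS, -1.28 ± 0.22 with sorafenib and -1.44 ± 0.22 with the combination (edgeR adjusted p 0.0122, 0.0192 and 0.000544). The MMS call was lost without replicate 1 of DMSO, where the change was -0.46 (adjusted p 0.142), and without either MMS library (0.0959 and 0.0550); the sorafenib call was lost without replicate 1 of DMSO, at -0.90 (0.133), or either sorafenib library (0.103 and 0.166) and in a fit of the compared libraries alone (0.331).

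At 8 h DUSP5 stood at 111 and 85.7 CPM in MMS cells, 49.4 and 47.6 CPM in sorafenib cells and 71.1 and 56.8 CPM in combination cells, against 100.4 and 80.6 CPM in DMSO cells. Sorafenib and combination libraries were below both DMSO libraries, and MMS libraries overlapped them. The changes with sorafenib (-0.88 ± 0.22, edgeR adjusted p 0.171) and the combination (-0.51 ± 0.22, adjusted p 0.119) did not pass by edgeR; the first passed with DESeq2 (0.0104) and without a filter on low counts (0.0439), and with the experiment as replicate block both did (-0.88 ± 0.15, adjusted p 0.00118, and -0.51 ± 0.15, adjusted p 0.0102). Of the combination against MMS, changes of -0.67 ± 0.22 at 8 h and -0.59 ± 0.22 at 24 h likewise did not pass (edgeR adjusted p 0.201 and 0.808), and with the block both did (0.00874 and 0.0455). The pseudogene DUSP5P, a possible copy, is counted as its own gene, and reads that DUSP5 shares with it are uncertain.

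DUSP7, a cytoplasmic ERK phosphatase, did not pass in any comparison of the main edgeR fit (all 16 libraries, low counts filtered, no replicate block). At 8 h it stood at 51.8 and 65.1 CPM in MMS cells, 69.1 and 102 CPM in sorafenib cells and 50.7 and 63.2 CPM in combination cells, against 82.6 and 106 CPM in DMSO cells. The MMS and combination libraries lay below both DMSO libraries, and sorafenib libraries overlapped them. DUSP7 was higher in the replicate 2 library of 8 of 8 groups, by a median of 0.33 on the log2 scale. Its 8 h changes of -0.65 ± 0.26 with MMS (edgeR adjusted p 0.0882) and -0.74 ± 0.26 with the combination (0.0633) passed with the experiment as replicate block (-0.65 ± 0.09, adjusted p 1.65e-05, and -0.74 ± 0.10, adjusted p 5.51e-06), as did the combination against sorafenib (-0.59 ± 0.10, adjusted p 6.03e-05, and 0.122 without the block). DESeq2 called these 3 changes too (adjusted p 0.0312, 0.0135 and 0.0453), and those with MMS and the combination against DMSO also passed without a filter on low counts (0.0438 and 0.0219) and in fits of the compared libraries alone (0.0240 and 0.0283). At 24 h the changes against DMSO lay between -0.10 ± 0.26 and 0.05 ± 0.26.

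**Figure D2:**
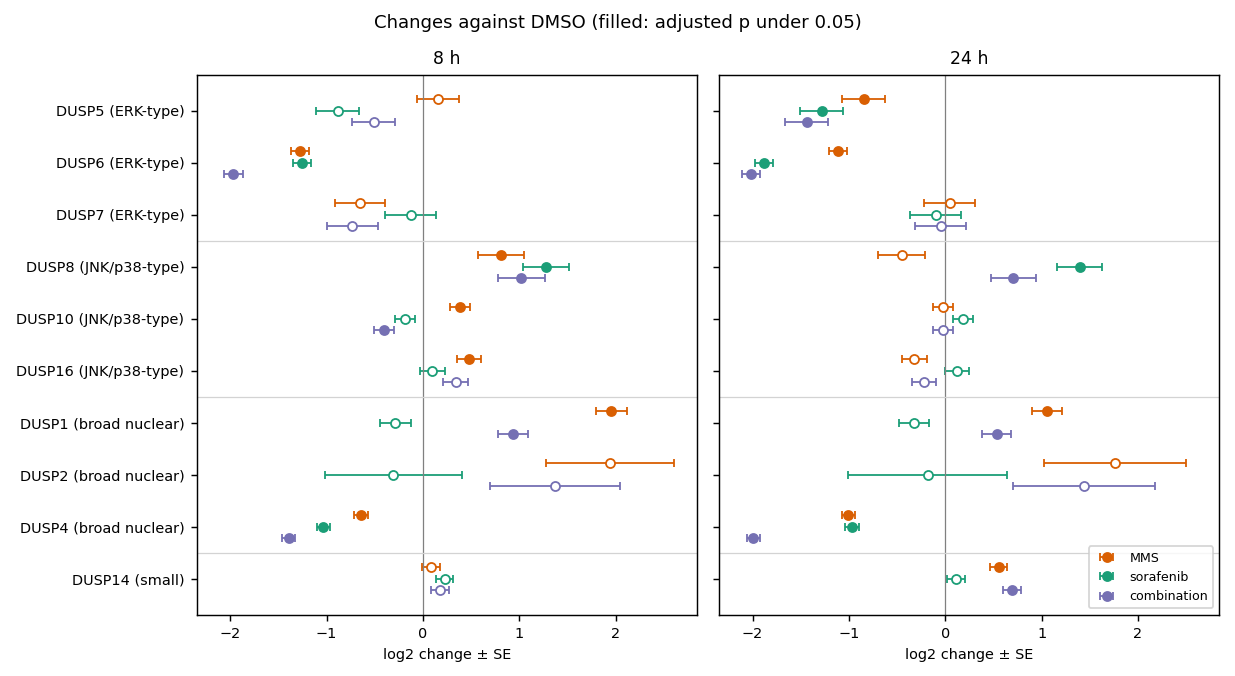
Log2 change ± SE (horizontal axis) of each phosphatase with MMS, sorafenib and the combination against DMSO at 8 h (left) and 24 h (right); filled points have an edgeR adjusted p under 0.05. DUSP6 and DUSP4 lie left of 0 in all 6 comparisons and DUSP1 lies right of 0 with MMS and the combination.

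DUSP8, a phosphatase of JNK and p38 and 1 of the 2 least abundant members, rose with sorafenib at both times. At 24 h it stood at 9.85 and 8.20 CPM in sorafenib cells, 2.72 and 2.46 CPM in MMS cells and 6.75 and 4.76 CPM in combination cells, against 3.13 and 3.69 CPM in DMSO cells. Both sorafenib libraries lay above every other library of that time, and both MMS libraries lay below both DMSO libraries. Against DMSO the log2 changes were 1.40 ± 0.23 with sorafenib and 0.70 ± 0.23 with the combination (edgeR adjusted p 0.0161 and 0.0353), and -0.45 ± 0.24 with MMS (adjusted p 0.184). The combination was below sorafenib at a log2 change of -0.69 ± 0.22 (adjusted p 0.0298). The sorafenib call was lost without either DMSO library (adjusted p 0.130 and 0.118) or replicate 1 of sorafenib (0.221), the combination call with DESeq2 (0.0533), without either DMSO library (0.164 and 0.0737) or without replicate 1 of the combination (0.45, 0.256), and the difference from sorafenib without replicate 1 of sorafenib (0.212) or replicate 2 of the combination (-0.44, 0.250). In fits of the compared libraries alone these 3 calls had adjusted p 0.245, 0.121 and 0.0781. The combination was above MMS by 1.15 ± 0.24 (edgeR adjusted p 0.125), which passed with DESeq2 (0.0287) and with the experiment as replicate block (0.00397). The sorafenib libraries at 24 h also had the highest sum of the luminal markers, 50.1 to 74.6 CPM against 28.3 to 29.4 CPM in DMSO libraries at 24 h. Over all 16 libraries ELF3 ranged most, from 0.337 to 39.9 CPM. EPCAM lay between 8.86 and 19.3 CPM, GATA3 between 4.65 and 10.7 and CDH1 between 0.241 and 9.34. FOXA1, PGR and ESR1 reached at most 1.74, 0.674 and 0.224 CPM. The 4 fibroblast markers summed to 21.6 to 22.4 CPM in sorafenib libraries and 14.03 to 14.8 CPM in DMSO libraries at 24 h, with COL3A1 and DCN at 5 reads or fewer. The part of either sum in the change of DUSP8 was not tested.

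At 8 h DUSP8 stood at 7.19 and 5.27 CPM in sorafenib cells, 3.86 and 5.06 CPM in MMS cells and 5.42 and 5.22 CPM in combination cells, against 2.62 and 2.58 CPM in DMSO cells. Every treated library was above both DMSO libraries. The log2 changes were 1.28 ± 0.24 with sorafenib, 0.81 ± 0.24 with MMS and 1.02 ± 0.24 with the combination (edgeR adjusted p 0.0458, 0.0246 and 0.00799). The sorafenib call was lost without any one of the 4 libraries (adjusted p 0.0732 to 0.542), the MMS call without either DMSO library or replicate 2 of MMS (0.101, 0.120 and 0.188), and the combination call without replicate 2 of DMSO (0.0578). In fits of the compared libraries alone the sorafenib and MMS calls had adjusted p 0.259 and 0.0715. At 8 h the luminal markers summed to 31.3 to 40.1 CPM in sorafenib libraries and 22.8 to 25.1 CPM in DMSO libraries, and the fibroblast markers to 11.9 to 16.1 CPM in sorafenib libraries and 10.4 to 10.5 CPM in DMSO libraries.

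DUSP10, a phosphatase of JNK and p38, moved in opposite directions with MMS and the combination at 8 h. It stood at 62.2 and 65.1 CPM in MMS cells, 44.5 and 42.5 CPM in sorafenib cells and 37.4 and 38.8 CPM in combination cells, against 48.7 and 51.5 CPM in DMSO cells. The MMS libraries lay above both DMSO libraries, and the sorafenib and combination libraries lay below both. Against DMSO the log2 changes were 0.38 ± 0.10 with MMS, -0.19 ± 0.10 with sorafenib and -0.41 ± 0.10 with the combination (edgeR adjusted p 0.0155, 0.773 and 0.0131), and the combination was below MMS at a log2 change of -0.79 ± 0.10 (adjusted p 0.00655). The MMS call was lost without any one of the 4 libraries (adjusted p 0.0522 to 0.112), the combination call without its replicate 1 (0.0678) or replicate 2 of DMSO (0.0711), and the difference from MMS without either MMS library (0.0539 and 0.0732) or replicate 1 of the combination (0.0870), as in a fit of the compared libraries alone (0.0810). At 24 h DUSP10 lay between 39.6 and 48.9 CPM in all 8 libraries, and its changes against DMSO, from -0.02 ± 0.10 to 0.19 ± 0.10, did not pass.

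DUSP16, which acts mainly on JNK, rose with MMS at 8 h. It stood at 30.1 and 30.0 CPM in MMS cells, 24.2 and 22.8 CPM in sorafenib cells and 26.3 and 30.2 CPM in combination cells, against 22.5 and 21.9 CPM in DMSO cells. The MMS and combination libraries lay above both DMSO libraries, and the combination libraries were farther apart than those of MMS. The log2 changes were 0.47 ± 0.13 with MMS and 0.34 ± 0.13 with the combination (edgeR adjusted p 0.0158 and 0.0760); the first was lost without any one of the 4 libraries (0.0717 to 0.0985), and the second passed with the experiment as replicate block (adjusted p 0.0270). At 24 h it stood at 23.7 and 25.5 CPM in MMS cells, 36.9 and 27.8 CPM in sorafenib cells and 25.9 and 26.8 CPM in combination cells, against 30.5 and 28.9 CPM in DMSO cells. The replicates of sorafenib were far apart, and the combination was below sorafenib at a log2 change of -0.34 ± 0.13 (adjusted p 0.0494), which came to -0.08 without replicate 1 of sorafenib (0.672) and was also lost without either combination library (0.214 and 0.166), with scaling by library totals (0.0750), without a filter on low counts (0.0850) and in a fit of the compared libraries alone (0.148). The change with MMS at 24 h, -0.32 ± 0.13, did not pass (adjusted p 0.0752) and passed with the block (0.0308).

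The 3 phosphatases of the JNK and p38 type all rose with MMS at 8 h, where 14.5% of all genes were higher and 12.0% lower. The calls of DUSP10 and DUSP16 were lost without any one of the 4 libraries, and that of DUSP8 without either DMSO library or replicate 2 of MMS. Of the 3 of the ERK type DUSP6 fell by edgeR, and DESeq2 called DUSP7 as well (2 of 3, also at an unadjusted p under 0.05). With sorafenib at 24 h, 2 of 3 of the ERK type fell, and of the JNK and p38 type DUSP8 rose and DUSP10 and DUSP16 did not pass. Of all genes 0.244% were higher and 0.574% lower there. With MMS at 24 h, 15.2% of all genes were higher and 16.3% lower. There 2 of 3 of the ERK type fell and 0 of 3 of the JNK and p38 type passed by edgeR or DESeq2, with 1 of 3 (DUSP16) at an unadjusted p under 0.05. Over the ERK type the median log2 change was -0.65 with MMS at 8 h, against -0.00420 over all genes, and over the JNK and p38 type it was 0.47. Each median of 3 is the value of 1 member, here DUSP7, which did not pass by edgeR, and DUSP16. The ERK type ranged from -1.28 to 0.16 there. With MMS at 24 h the medians were -0.85 for the ERK type and -0.32 for the JNK and p38 type. With sorafenib they were -0.88 and 0.10 at 8 h, and -1.28 and 0.19 at 24 h.

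DUSP1, a nuclear phosphatase induced early by stress and growth factors, rose with MMS and with the combination at both times. At 8 h it stood at 303 and 305 CPM in MMS cells, 71.9 and 58.7 CPM in sorafenib cells and 174 and 136 CPM in combination cells, against 86.3 and 74.8 CPM in DMSO cells. The MMS libraries were above all others, the combination libraries lay between MMS and DMSO, and the sorafenib libraries were below both DMSO libraries. The log2 changes against DMSO were 1.95 ± 0.16 with MMS and 0.93 ± 0.16 with the combination (edgeR adjusted p 6.36e-06 and 0.00102), and -0.29 ± 0.16 with sorafenib (adjusted p 0.777). The combination was below MMS at a log2 change of -1.02 ± 0.15 (adjusted p 0.0129) and above sorafenib by 1.22 ± 0.16 (0.000179). The difference from MMS was lost without either MMS library (adjusted p 0.0989 and 0.106).

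At 24 h DUSP1 stood at 245 and 196 CPM in MMS cells, 89.3 and 75.7 CPM in sorafenib cells and 157 and 151 CPM in combination cells, against 107 and 97.8 CPM in DMSO cells. The order of the groups was that of 8 h. Against DMSO the log2 changes were 1.06 ± 0.16 with MMS and 0.53 ± 0.15 with the combination (edgeR adjusted p 0.000455 and 0.0196), and the combination was above sorafenib by 0.85 ± 0.16 (0.00125). The combination call was lost without either combination library (adjusted p 0.0845 and 0.0633) or replicate 2 of DMSO (0.125). The change of -0.32 ± 0.16 with sorafenib did not pass (0.596) and passed with the experiment as replicate block (-0.32 ± 0.09, adjusted p 0.0288), as did -0.52 ± 0.15 of the combination against MMS (adjusted p 0.478, and 0.00146 with the block).

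DUSP2, a nuclear phosphatase best known from immune cells, had 8 to 131 reads per library. It did not pass in any comparison of the main edgeR fit (all 16 libraries, low counts filtered, no replicate block). At 8 h it stood at 3.29 and 6.31 CPM in MMS cells, 0.50 and 1.56 CPM in sorafenib cells and 3.04 and 3.60 CPM in combination cells, against 0.894 and 1.62 CPM in DMSO cells. The MMS and combination libraries were above both DMSO libraries, while the sorafenib libraries overlapped them. The log2 changes were 1.94 ± 0.67 with MMS (edgeR adjusted p 0.0501) and 1.37 ± 0.67 with the combination (0.170), and with the experiment as replicate block they passed at 1.98 ± 0.30 (adjusted p 3.12e-05) and 1.43 ± 0.33 (0.00191). The change with MMS also passed with DESeq2 (0.0245), without a filter on low counts (0.0208) and in a fit of the compared libraries alone (0.0217). DUSP2 was higher in the replicate 2 library of 8 of 8 groups, by a median of 0.95 on the log2 scale. At 24 h it stood at 1.51 and 3.06 CPM in MMS cells, 0.340 and 0.842 CPM in sorafenib cells and 0.682 and 3.02 CPM in combination cells, against 0.615 and 0.681 CPM in DMSO cells. The change with the combination was 1.44 ± 0.74 (0.160), and it came to 2.18 without replicate 1 of the combination, where it passed (0.0365), and to 0.05 without replicate 2. With the block the changes at 24 h passed at 1.73 ± 0.41 (0.00189) with MMS and 1.37 ± 0.42 (0.0109) with the combination, the first also without a filter on low counts (0.0488) and in a fit of the compared libraries alone (0.0431), and those of the combination against sorafenib at 1.72 ± 0.34 (0.000547) at 8 h and 1.55 ± 0.42 (0.00414) at 24 h.

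DUSP4, a nuclear phosphatase induced by ERK and the member with the most reads, fell under every treatment at both times. At 8 h it stood at 396 and 420.1 CPM in MMS cells, 312 and 320.3 CPM in sorafenib cells and 247 and 254 CPM in combination cells, against 673 and 635 CPM in DMSO cells. The groups did not overlap, and the replicates of each lay close together. The log2 changes against DMSO were -0.65 ± 0.07 with MMS, -1.04 ± 0.07 with sorafenib and -1.40 ± 0.07 with the combination (edgeR adjusted p 4.12e-05, 2.73e-05 and 6.44e-07). The combination was below MMS at a log2 change of -0.75 ± 0.07 (0.000402) and below sorafenib at a log2 change of -0.36 ± 0.07 (0.00251). In fits of the compared libraries alone the adjusted p was 0.0512 for sorafenib against DMSO and 0.0513 for the combination against MMS.

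At 24 h DUSP4 stood at 458 and 471 CPM in MMS cells, 462 and 463 CPM in sorafenib cells and 241 and 228 CPM in combination cells, against 882 and 916 CPM in DMSO cells. The MMS and sorafenib libraries overlapped, and the combination libraries lay below all of them. The log2 changes against DMSO were -1.01 ± 0.07 with MMS, -0.97 ± 0.07 with sorafenib and -1.99 ± 0.07 with the combination (edgeR adjusted p 4.42e-06, 3.83e-05 and 3.50e-08). DUSP4 ranked 1 of 13948 genes by p for the combination against DMSO, and also for the combination against MMS, where it was lower, at a log2 change of -0.99 ± 0.07 (adjusted p 9.72e-05). Against sorafenib the combination was lower, at a log2 change of -1.02 ± 0.07 (4.53e-06), and in a fit of the compared libraries alone the adjusted p for sorafenib against DMSO was 0.0565. In DMSO cells it was higher at 24 h than at 8 h by 0.43 ± 0.07 (adjusted p 0.0314), the 1 member that passed there, against 0.366% of genes higher and 0.294% lower. That call was lost without any one of the 4 DMSO libraries (0.0707 to 0.180) and in a fit of these libraries alone (0.326), and with the replicate block 5 members passed, where 7.21% of genes were higher and 6.42% lower.

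DUSP14, the small phosphatase, rose with MMS and the combination at 24 h. It stood there at 117 and 106 CPM in MMS cells, 75.4 and 84.3 CPM in sorafenib cells and 118 and 129 CPM in combination cells, against 73.0 and 73.9 CPM in DMSO cells. The MMS and combination libraries lay above all sorafenib and DMSO libraries. The log2 changes were 0.55 ± 0.09 with MMS and 0.69 ± 0.09 with the combination (edgeR adjusted p 0.000855 and 0.000176), and the combination was above sorafenib by 0.58 ± 0.09 (0.000441). At 8 h its 8 libraries lay between 82.9 and 99.96 CPM, and no change passed (0.08 ± 0.09 with MMS, 0.22 ± 0.09 with sorafenib and 0.17 ± 0.09 with the combination).

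**Figure D3:**
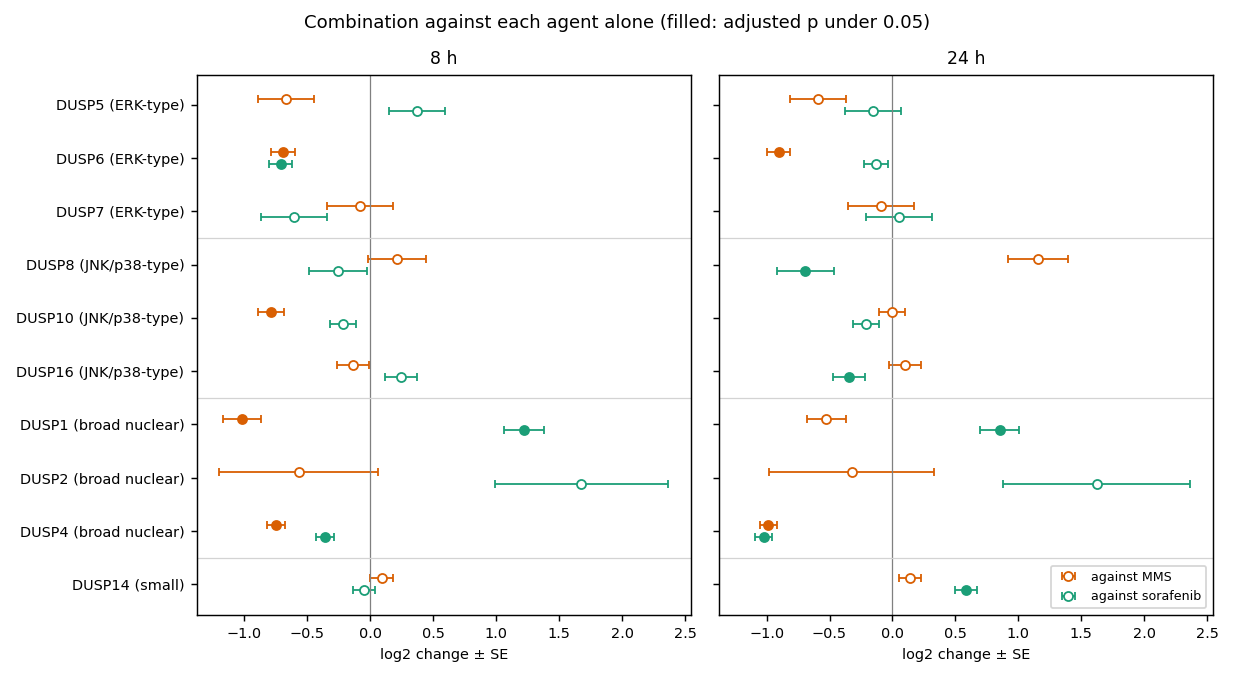
Log2 change ± SE (horizontal axis) of the combination against MMS alone and against sorafenib alone at 8 h (left) and 24 h (right); filled points have an edgeR adjusted p under 0.05. DUSP4 lies left of 0 in all 4 comparisons, and DUSP1 lies left of 0 against MMS and right of 0 against sorafenib.

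The interaction of sorafenib and MMS asks whether the log2 change of the combination differed from the sum of the changes with each agent. In the combination 12 h of sorafenib came before MMS. By edgeR 0 of 10 members and 0% of all genes passed at 8 h or at 24 h. At an unadjusted p under 0.05 there were 5 members and 505 genes at 8 h and 2 members and 304 genes at 24 h, and DESeq2 called 1 gene at each time, 0 members at 8 h and 1 member at 24 h. That member was DUSP6, whose combined fall at 24 h was smaller than the sum by 0.98 ± 0.13. It ranked 1 of 13948 genes by p with an edgeR adjusted p of 0.103, and it passed with the experiment as replicate block (0.98 ± 0.10, adjusted p 0.000161), with library totals (0.0332), without a filter on low counts (0.0298) and with DESeq2 (3.77e-07). The interaction of DUSP4 at 24 h was -0.02 ± 0.10. At 8 h the interaction of DUSP1 was -0.73 ± 0.22 (adjusted p 1) and passed with the block alone (-0.74 ± 0.12, adjusted p 0.0216).

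Differences between 24 h and 8 h were tested for each treatment's change against DMSO. For MMS, 1 member had a higher change at 24 h and 4 a lower one, against 3.53% and 5.60% of all genes. For DUSP1 the change was lower at 24 h, at -0.90 ± 0.22 (edgeR adjusted p 0.0248), for DUSP8 at -1.26 ± 0.34 (0.0386), for DUSP16 at -0.80 ± 0.18 (0.0182) and for DUSP4 at -0.36 ± 0.10 (0.0379), while for DUSP14 it was higher by 0.47 ± 0.13 (0.0394). The call of DUSP4 was lost with library totals (0.0775) and without a filter on low counts (0.110). For the combination, 1 was higher and 1 lower, against 4.49% and 6.32% of genes: DUSP14 at 0.52 ± 0.13 (0.0242) and DUSP4 at -0.60 ± 0.10 (0.00368). For sorafenib 0 of 10 members and 0% of genes passed by edgeR or by DESeq2, with 2 members and 150 genes at an unadjusted p under 0.05; DUSP6, at -0.63 ± 0.13, ranked 1 by p. Fewer members passed for MMS whichever 1 of the 8 libraries was left out. In a fit of the compared libraries alone 2 members and 776 genes passed for MMS. For the combination, the call of DUSP14 was lost without either DMSO library of 8 h or 24 h or replicate 2 of the combination at 8 h or 24 h. In a fit of the compared libraries alone 0 members and 441 genes passed for the combination. With the replicate block the counts were 8 for MMS (11.0% of genes higher and 14.6% lower in that fit) and 7 for the combination (12.7% and 16.1%). The members added for MMS were DUSP5 at -0.97 ± 0.21 (0.002), DUSP7 at 0.71 ± 0.13 (0.000747) and DUSP10 at -0.41 ± 0.13 (0.0282), and for the combination DUSP1, DUSP5, DUSP7, DUSP10 and DUSP16 (adjusted p 0.000774 to 0.0368). DESeq2 also called DUSP5 for MMS (0.0182) and for the combination (0.0328), and for MMS it passed without a filter on low counts (0.0337).

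**Figure D4:**
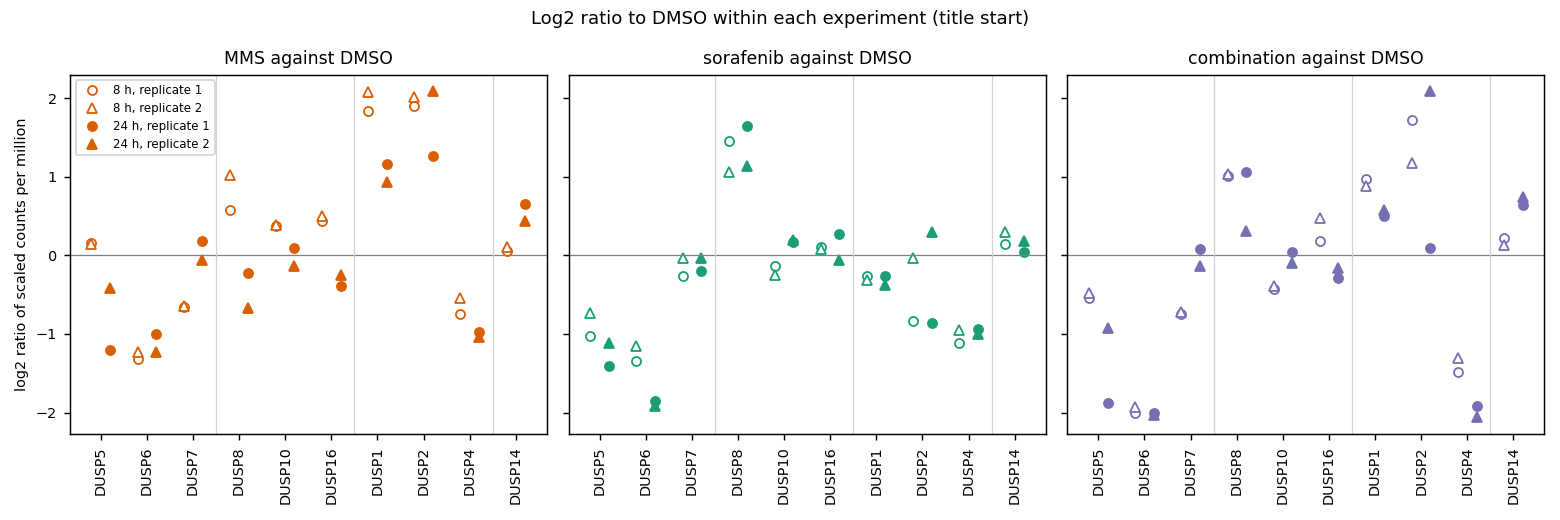
Log2 ratio to DMSO (vertical axis) of each phosphatase within each of the 2 title starts, taken here as experiments, for MMS, sorafenib and the combination. Open symbols are 8 h, filled symbols 24 h, circles replicate 1 and triangles replicate 2. DUSP6 and DUSP4 are below 0 for both title starts in every comparison, and the points of DUSP2 and DUSP5 are the farthest apart.

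Libraries whose titles begin alike were taken as 1 experiment, which no label states. Within each of these 2 sets taken alone, the changes of DUSP1, DUSP4, DUSP5 and DUSP6 that passed against DMSO had the same sign in both. Both sets enter the tested changes, so their shared sign is a description and no further test. For DUSP6 with the combination at 24 h the log2 ratios were -2.00 and -2.03, and for DUSP4 they were -1.92 and -2.06. For DUSP1 with MMS at 8 h they were 1.83 and 2.08. For DUSP5 with the combination at 24 h they were -1.88 and -0.93, both below 0 but far apart.

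Other genes of the MAP kinase pathways give the setting of these changes. Of 19 tested genes that ERK induces or that feed back on it, 5 fell with sorafenib at 8 h and 6 at 24 h, and no member of the list rose. Of all genes 0.280% were lower with sorafenib at 8 h and 0.574% at 24 h. With the combination, 13 fell and 0 rose at 8 h and 11 fell and 1 rose at 24 h, and with MMS 7 fell and 3 rose at each time. Of all genes 12.5% were higher and 11.8% lower with the combination at 8 h, and 16.2% and 17.2% at 24 h. With MMS these shares were 14.5% and 12.0% at 8 h and 15.2% and 16.3% at 24 h. SPRY4, a Sprouty inhibitor of the pathway, averaged 46.2 CPM in sorafenib cells and 105 CPM in DMSO cells at 24 h, a log2 change of -1.19 ± 0.11. ETV1, an ETS transcription factor, averaged 27.3 CPM in combination cells and 97.5 CPM in DMSO cells at 24 h (-1.89 ± 0.13), and PHLDA1 328 CPM in combination cells and 1043 CPM in DMSO cells (-1.72 ± 0.13). FOS, an immediate early transcription factor of the same list, rose with MMS at 8 h (2.67 ± 0.29) and fell with sorafenib (-2.08 ± 0.34). The median log2 change of the list was -0.66 with sorafenib and -0.82 with the combination at 24 h, against -0.00420 and 0.00812 over all genes.

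Of 15 tested early genes of JNK, p38 and stress, 10 rose with MMS at 8 h and 7 with the combination at 8 h, and none of the list fell. Of all genes 14.5% were higher and 12.0% lower with MMS at 8 h, and 12.5% and 11.8% with the combination. Its median log2 change with MMS at 8 h was 0.96, against -0.00420 over all genes. With sorafenib 0 passed by edgeR at either time, where 3 at 8 h and 4 at 24 h had an unadjusted p under 0.05 and DESeq2 called 2 at each time. ATF3, a stress-induced transcription factor, averaged 84.2 CPM in MMS cells and 7.51 CPM in DMSO cells at 8 h (3.52 ± 0.23). GADD45A, a growth arrest gene that binds the kinase MAP3K4, averaged 182 CPM in MMS cells and 40.6 CPM in DMSO cells (2.20 ± 0.18), and the chemokine CXCL2 149 CPM in MMS cells and 29.9 CPM in DMSO cells (2.35 ± 0.23). At 24 h the list had 3 higher and 3 lower with MMS (15.2% and 16.3% of all genes) and 4 higher and 5 lower with the combination (16.2% and 17.2%). Between the combination and MMS at 8 h, KLF6 (-0.84 ± 0.15) and PTGS2 (-2.09 ± 0.41) fell, as did DUSP1, DUSP4, DUSP6 and DUSP10.

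**Figure D5:**
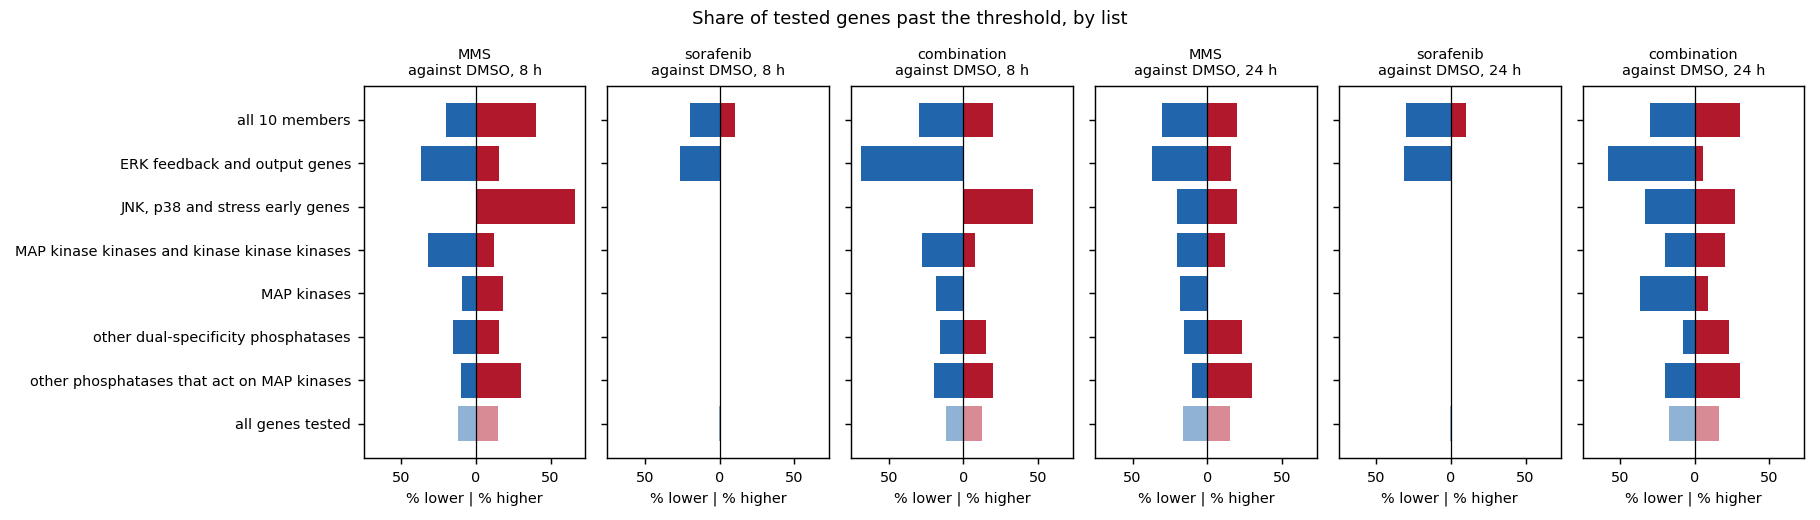
Share of the tested genes of each list past the threshold (horizontal axis, percent lower to the left in blue and percent higher to the right in red) for MMS, sorafenib and the combination against DMSO at 8 h and 24 h; the pale bars at the bottom are all genes tested. With sorafenib the lists with genes past the threshold are the 10 phosphatases and the genes of ERK feedback and output.

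Of 11 tested MAP kinase genes, 2 rose and 1 fell with MMS at 8 h, 4 fell and 1 rose with the combination at 24 h, and 0 passed with sorafenib. Of all genes 14.5% were higher and 12.0% lower with MMS at 8 h, and 16.2% and 17.2% with the combination at 24 h. The MMS counts of the next 3 lists are also at 8 h and stand beside the same 14.5% and 12.0%. MAPK3, which encodes an ERK kinase, averaged 22.8 CPM in MMS cells and 31.7 CPM in DMSO cells at 24 h (-0.52 ± 0.11). Of 25 tested upstream kinase genes, 8 fell and 3 rose with MMS at 8 h; MAP3K5, a stress-activated kinase upstream of JNK and p38, averaged 4.42 CPM in MMS cells and 17.4 CPM in DMSO cells (-1.95 ± 0.20). Of 13 other tested dual-specificity phosphatase genes 2 rose and 2 fell with MMS at 8 h, near the shares of all genes. Among them were DUSP3 (0.23 ± 0.06) and SSH1 (-0.24 ± 0.08). Of 10 other tested phosphatases that act on MAP kinases 3 rose and 1 fell, among them PPM1D, which acts on p38 (0.36 ± 0.09). With sorafenib 0 genes of these 4 lists passed by edgeR at either time, with 0 to 3 genes per list at an unadjusted p under 0.05, and DESeq2 called 1 MAP kinase gene at 24 h and 0 others.

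The genes whose group means were most like those of a member were ranked over the 8 groups among 11508 genes with a mean of at least 50 reads, as a description with groups that share DMSO and experiments. For DUSP1 the top 5 were LOC654433, PPP1R2P3, NR4A1 (an immediate early nuclear receptor), TMEM57 and SH3BP5L, with Pearson r from 0.97 to 0.99. For DUSP6 they were VEPH1, ANTXR2, SLC25A37, SSFA2 and SPRED1, with r from 0.96 to 0.98, and SPRED1 is an inhibitor of the RAS and ERK pathway. For DUSP10 they were BPTF, COIL, DGKH, TAOK1 and PANK3, with r from 0.92 to 0.94, and TAOK1 is a kinase upstream of JNK and p38.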

How the data were processed

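The deposited values are read counts per gene, one table per library; per the submitters' processing notes, reads came from CASAVA 1.8.2 and were processed with TopHat2 2.0.8b and HTSeq on hg19. Annotation and strand setting are not given in the sources used here. The 5 counter rows were left out. Of all counts with these rows included, reads in no gene made up 6.88 to 7.94% and ambiguous reads 1.03 to 1.18%. Reads without a unique alignment made up 29.5 to 31.5%. CPM is the count scaled to a fixed library total of reads in genes. Counts were tested in edgeR 4.0.16 (R 4.3.3): TMM factors, filterByExpr, 1 mean per group over all 16 libraries, quasi-likelihood tests, Benjamini-Hochberg adjustment over 13948 genes, 16 comparisons. The procedure was tested on simulated data. Titles begin in 2 ways, once per group; deviations from group means correlated between same-start libraries at 0.441 to 0.819 (median 0.708) over 28 pairs of groups, so the title start was taken to pair samples and used as a replicate block in an alternative fit, given where it changes a call. The series text names independent experiments; which title start is which is not stated. Alternatives were RLE factors, library totals, DESeq2 1.42.0, a filter at a mean of 50 counts or no filter, the block, the compared libraries alone and each library left out. A group left with 1 library is assumed to vary like the others. Named genes were all members, up to 4 genes per list with the smallest p, of which the text leaves some out, and the 5 most like DUSP1, DUSP6 and DUSP10. Members and lists were chosen with earlier results of these data known.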

Additional observations from a re-analysis of the deposited data

Results flagged for a closer look

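For 7 results the change against DMSO differed between 24 h and 8 h in edgeR's test of that difference (log2 change at 24 h minus that at 8 h, adjusted p under 0.05). With MMS these were DUSP1 at -0.90, DUSP4 at -0.36, DUSP8 at -1.26, DUSP14 at 0.47 and DUSP16 at -0.80. With the combination they were DUSP4 at -0.60 and DUSP14 at 0.52. In each of them the difference had the same sign for both title starts: for DUSP8 with MMS it was -0.80 and -1.69, and for DUSP16 -0.83 and -0.76. Both values enter the tested difference, so their shared sign is a description and no further test. Fewer of the MMS calls were kept whichever 1 of the 8 libraries was left out. DUSP8 with MMS was above DMSO at 8 h and not called at 24 h, where its value was below DMSO. The DMSO libraries of both times enter each difference, and DUSP4 itself was higher in DMSO at 24 h than at 8 h by 0.43.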

How the results depend on the processing

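Each of the 16 comparisons was refitted under every alternative. Of 589 refits of called log2 changes 0 turned in sign, 5 lost the call with all libraries in the fit, 19 in fits of the compared libraries alone and 92 of 232 lost it with 1 library left out; 23 of 51 called changes were kept in all of them, and 57 refits gained a call, 32 of them with the replicate block, which lost 0. Counts of members past the threshold with the block were 9 for the combination against DMSO at 8 h (20.5% of all genes higher and 19.0% lower in that fit), 5 for the combination against sorafenib at 8 h (20.6% and 19.1%) and 5 against MMS at 24 h (0.774% and 1.25%), 8 for the MMS change between times (11.0% and 14.6%), 7 for that of the combination (12.7% and 16.1%), 5 for DMSO over time (7.21% and 6.42%) and 1 for each interaction (0.00717% and 0.0430% at 8 h, 0.0215% and 0.00717% at 24 h). In fits of the compared libraries alone they were 1 with sorafenib against DMSO at 8 h and at 24 h, where 4 and 5 genes passed. They were 1 with the combination against MMS at 8 h and at 24 h (29 and 5 genes) and 3 with the combination against sorafenib at 24 h (4473 genes). The count was 2 for the MMS change between times (776 genes) and 0 for those of the combination and DMSO (441 and 0 genes). The interaction at 24 h had 1 member with library totals, with DESeq2 and without a filter, and 1 gene in all passed in each of these fits. With 1 library left out, calls of members were lost in the comparisons given above, and the number of all genes that passed changed as well. Fewer samples enter each of these fits, and other causes were not tested.

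Of 1944 refits of log2 changes 88 turned in sign, and 0 of these passed the threshold in either fit. With library totals DUSP10 was at 0.029 with MMS and 0.028 with the combination against DMSO at 24 h, and DUSP7 at 0.0050 with the combination. With the block DUSP10 was at 0.00053 for the combination against MMS at 24 h and DUSP2 at -0.062 for the combination change between times. The interaction of DUSP7 at 24 h was -0.0033 with RLE factors, -0.0066 with library totals, -0.0038 with DESeq2, -0.00049 without a filter and -0.0013 on the compared libraries; the cause was not tested. The other 78 came with 1 library left out. For MMS against DMSO at 8 h the range was DUSP5 -0.048 to 0.33. For sorafenib against DMSO at 8 h the ranges were DUSP2 -1.31 to 0.30 and DUSP7 -0.42 to 0.12. For the combination against MMS at 8 h the range was DUSP7 -0.26 to 0.090. For the combination against sorafenib at 8 h the range was DUSP14 -0.13 to 0.015. For the interaction at 8 h the ranges were DUSP2 -0.87 to 0.74 and DUSP7 -0.20 to 0.34. For MMS against DMSO at 24 h the ranges were DUSP7 -0.20 to 0.35 and DUSP10 -0.15 to 0.15. For sorafenib against DMSO at 24 h the ranges were DUSP2 -0.91 to 0.35, DUSP7 -0.48 to 0.20 and DUSP16 -0.12 to 0.33. For the combination against DMSO at 24 h the ranges were DUSP10 -0.11 to 0.095 and DUSP7 -0.29 to 0.25. For the combination against MMS at 24 h the ranges were DUSP10 -0.15 to 0.15, DUSP2 -1.74 to 0.39 and DUSP7 -0.27 to 0.059. For the combination against sorafenib at 24 h the ranges were DUSP5 -0.33 to 0.092 and DUSP7 -0.23 to 0.45. For the interaction at 24 h the ranges were DUSP4 -0.064 to 0.021, DUSP7 -0.30 to 0.38, DUSP14 -0.069 to 0.13, DUSP16 -0.23 to 0.21 and DUSP2 -1.56 to 0.58. For the MMS effect between times the range was DUSP2 -0.71 to 0.40. For the sorafenib effect between times the ranges were DUSP16 -0.21 to 0.24, DUSP1 -0.18 to 0.13, DUSP7 -0.34 to 0.34, DUSP2 -0.59 to 1.13 and DUSP8 -0.093 to 0.37. For the combination effect between times the ranges were DUSP2 -1.31 to 0.82 and DUSP6 -0.12 to 0.073.

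DUSP2, with 8 to 131 reads per library, had the largest SE of the members, 0.63 to 0.82 between 2 groups, and groups of 2 libraries limit every test.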
